A study of Mus musculus with 10 samples.

Results

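The genes described here encode the vacuolar proton pump and the acid hydrolases, carriers and membrane proteins of the lysosome, in mouse bone marrow cultures given recombinant adiponectin. Of the 41 genes listed for this group, 40 were measured by a probe set assigned to that gene alone, out of 19938 genes measured in this way, and Atp6v0c was not analysed here. They comprised 15 proton pump genes (8 of the V1 sector, 5 of the V0 sector and 2 accessory subunits), 13 hydrolases, 3 lipid-handling proteins, 7 membrane proteins and 2 transcription factors. A gene with several such probe sets was represented by its brightest over the 10 arrays, which concerned Atp6v1f, Atp6v1g1 and Atp6v0a2.

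Marrow came from the long bones of Swiss male mice aged 4 to 6 weeks and was cultured in αMEM with 10% FCS. Every culture, control wells included, received 1,25(OH)2D3, the active form of vitamin D, which is commonly added to marrow cultures to let osteoclasts form. The treated arm received recombinant mouse adiponectin, a hormone of fat cells, at 5 µg/ml and the control arm received vehicle. RNA was taken at 4, 10, 24, 72 and 120 h, with 1 array for each arm at each time and 10 arrays in all. The title of the series names lipopolysaccharide contamination, so the effects of adiponectin and of any lipopolysaccharide in the preparation cannot be told apart in the treated arm. The labels do not say whether cultures came from separate animals, so the spread behind each p-value is that of these cultures and may be technical, and the spread over the 5 pairs also holds any change of the difference with time.

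The vacuolar ATPase is a rotary pump: its cytosolic V1 sector hydrolyses ATP and turns the V0 sector in the membrane, which carries protons into the lumen. The acid that it makes activates the cathepsins, glycosidases and lipases of the lysosome, and membrane carriers export what they release. In marrow cultures the same organelle serves macrophages, which degrade what they engulf, and osteoclasts, which place the pump in the plasma membrane that faces bone and acidify the space beneath. TFEB and TFE3 are transcription factors that bind an E-box in the promoters of many of these genes.

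The sequence of that E-box core, CACGTG, and a longer form, TCACGTGA, were looked for in the RefSeq promoter windows of the group, build GRCm38.p6, which run from 250 bases before the annotated start site to 50 bases after it. Both forms are palindromes, so a match holds on both strands, and every match to the longer form contains the core. Of the 40 genes, 31 had a window, and 9 of these (29%) held the core, against 8.09% of 27025 genes and 7.15% of all 32851 windows. The longer form was in 6 of the 31 (19.4%), against 1.12% of genes and 0.974% of windows. The core stood in 4 of 10 proton pump windows and 3 of 11 hydrolase windows. The windows shown here are written 5′ to 3′ along the gene in lower case with each core in capitals. The first windows belong to the genes that differed between the arms, Ctsc (chr7:88277835-88278134, plus strand) and Slc46a3 (chr5:147894766-147895065, minus strand), and neither holds the core.
Ctsc: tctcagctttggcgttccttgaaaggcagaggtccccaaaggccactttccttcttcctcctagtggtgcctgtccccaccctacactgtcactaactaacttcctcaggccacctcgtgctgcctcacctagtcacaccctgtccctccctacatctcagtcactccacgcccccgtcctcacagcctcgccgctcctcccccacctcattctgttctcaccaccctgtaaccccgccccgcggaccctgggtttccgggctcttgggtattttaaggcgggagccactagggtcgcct
Slc46a3: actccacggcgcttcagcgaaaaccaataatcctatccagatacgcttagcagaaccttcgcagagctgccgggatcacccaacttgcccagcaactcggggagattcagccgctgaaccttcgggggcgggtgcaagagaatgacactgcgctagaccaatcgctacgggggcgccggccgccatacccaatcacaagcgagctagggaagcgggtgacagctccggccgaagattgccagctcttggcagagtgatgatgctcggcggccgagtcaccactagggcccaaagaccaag
The next windows hold the core and stand for 4 roles. They belong to the V1 gene Atp6v1a (chr16:44139210-44139509, minus strand), the V0 gene Atp6v0b (chr4:117887280-117887579, minus strand), the hydrolase Ctsl (chr13:64370471-64370770, minus strand) and the lysosomal calcium channel Mcoln1 (chr8:3500269-3500568, plus strand).
Atp6v1a: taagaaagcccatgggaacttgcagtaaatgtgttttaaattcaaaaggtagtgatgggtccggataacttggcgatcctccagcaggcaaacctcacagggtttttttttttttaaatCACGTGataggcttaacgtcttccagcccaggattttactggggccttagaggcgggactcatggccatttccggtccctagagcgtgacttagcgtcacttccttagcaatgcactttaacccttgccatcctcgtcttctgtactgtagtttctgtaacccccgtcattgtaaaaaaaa
Atp6v0b: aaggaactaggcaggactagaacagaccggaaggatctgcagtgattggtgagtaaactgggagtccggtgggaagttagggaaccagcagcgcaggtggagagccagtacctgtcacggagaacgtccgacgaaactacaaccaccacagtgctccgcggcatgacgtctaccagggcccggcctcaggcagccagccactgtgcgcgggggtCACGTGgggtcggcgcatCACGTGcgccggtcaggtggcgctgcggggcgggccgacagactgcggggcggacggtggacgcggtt
Ctsl: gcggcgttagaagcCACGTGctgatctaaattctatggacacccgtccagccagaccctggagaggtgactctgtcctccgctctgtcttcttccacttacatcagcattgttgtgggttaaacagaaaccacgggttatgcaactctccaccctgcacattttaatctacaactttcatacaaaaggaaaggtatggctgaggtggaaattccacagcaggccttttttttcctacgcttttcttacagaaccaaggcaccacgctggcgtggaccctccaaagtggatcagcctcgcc
Mcoln1: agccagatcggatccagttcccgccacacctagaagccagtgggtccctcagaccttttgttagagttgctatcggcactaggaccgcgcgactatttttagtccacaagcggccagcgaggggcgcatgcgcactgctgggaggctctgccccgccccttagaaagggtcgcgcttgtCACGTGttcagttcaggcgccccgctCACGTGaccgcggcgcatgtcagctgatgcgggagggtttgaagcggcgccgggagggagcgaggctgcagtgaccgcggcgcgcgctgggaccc
A match is a description of these letters and not a site shown to be bound, and a window without one says only that the letters are not in these 300 bases. The single core of Atp6v1a began at position -131 from the start site and lay within the longer form, as did the core of Mcoln1 at -45. The core of Ctsl lay near the far end of its window, at -236. Atp6v0b held 2 cores without the longer form, and Lamp1 held 4.

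**Figure D1:**
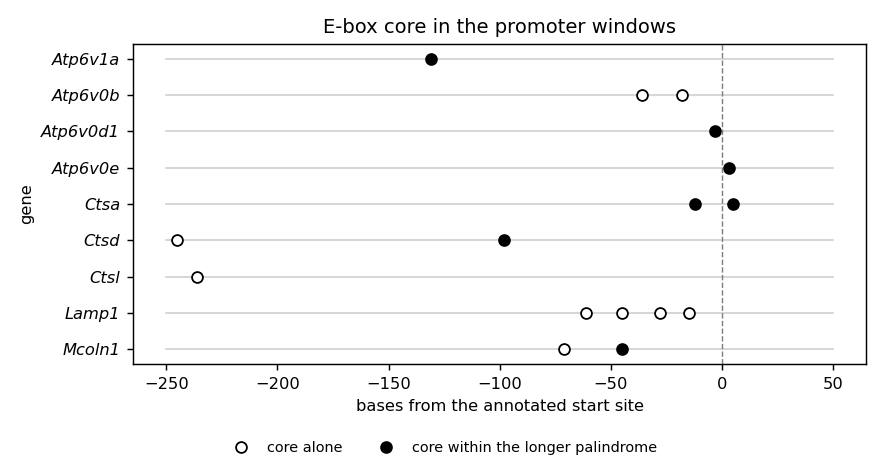
Position of each E-box core in the promoter windows of the 9 genes that hold one, in bases from the annotated start site (dashed line); grey lines span the 300-base window, open circles are cores alone and filled circles are cores within the longer palindrome. The cores of Atp6v0d1, Atp6v0e and Ctsa sit within 12 bases of the start site, while that of Ctsl (-236) and the farther one of Ctsd (-245) sit near the far end of the window.

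All values below are the authors' log2 array intensities, so a difference of 1 is a doubling, and brightness is compared only within a gene. The median over all genes lay between 8.40 and 8.48 on 9 of the arrays and at 8.27 on the 10 h control array, which stood apart, and counts of calls are also given without the 10 h pair. As a rough check of the tissue label, since brightness also depends on the probe, 10 of 10 macrophage markers and 10 of 10 neutrophil markers had a mean above that of the median gene, as did 9 of 10 osteoclast markers. So did markers of B cells (6 of 7), megakaryocytes (6 of 6), dendritic cells (7 of 10) and stromal cells (7 of 10), so the check separates few cell types. Markers of T and NK cells (1 of 8) and of erythroid cells (2 of 7) mostly did not.

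Among these genes 2 differed between adiponectin-treated and control cultures beyond the spread that the test allows. Across the 5 pairs, 1 of the 40 genes was higher with adiponectin at an adjusted p under 0.05 (limma with time as a block, Benjamini-Hochberg over all genes) and 1 was lower. Of all genes measured, 2.05% were higher and 0.371% lower by the same rule. The gene that rose was Ctsc, a cathepsin that activates the serine proteases of granules, and the gene that fell was Slc46a3, a transporter of the lysosomal membrane. The remaining 38 did not pass the test; of all 40, 3 were higher and 11 lower at an unadjusted p under 0.05, as were 5.91% and 4.21% of all genes. Without the 10 h pair the counts were again 1 and 1.

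Ctsc stood at 12.96, 12.84, 12.92, 12.88 and 12.66 in the control arm from 4 to 120 h and at 13.25, 13.29, 13.41, 13.31 and 13.16 in the adiponectin arm. Every treated culture was above every control culture, so the arms did not overlap at any pairing of times. Its mean difference was 0.43 ± 0.08 (SD over 5 pairs), a 1.35-fold rise, with an adjusted p of 0.00712 in limma. The difference lay between 0.29 at 4 h and 0.50 at 120 h, and the call held under every alternative that was run.

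Slc46a3 moved the other way and by more. Its control values were 10.07, 9.61, 10.19, 10.39 and 10.68 from 4 to 120 h, and its adiponectin values were 8.78, 9.13, 9.15, 9.91 and 10.29. Each treated culture was below the control of its own time, while the late treated cultures overlapped the early controls. The mean difference was -0.74 ± 0.40 (SD, 5 pairs; 1.67-fold lower), with an adjusted p of 0.0105 in limma. Without the 24 h pair the difference was -0.66 and the adjusted p 0.0696, and without time as a block the adjusted p was 0.752. The gap was widest at 4 h (-1.29) and 24 h (-1.04) and narrowest at 120 h (-0.39).

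**Figure D2:**
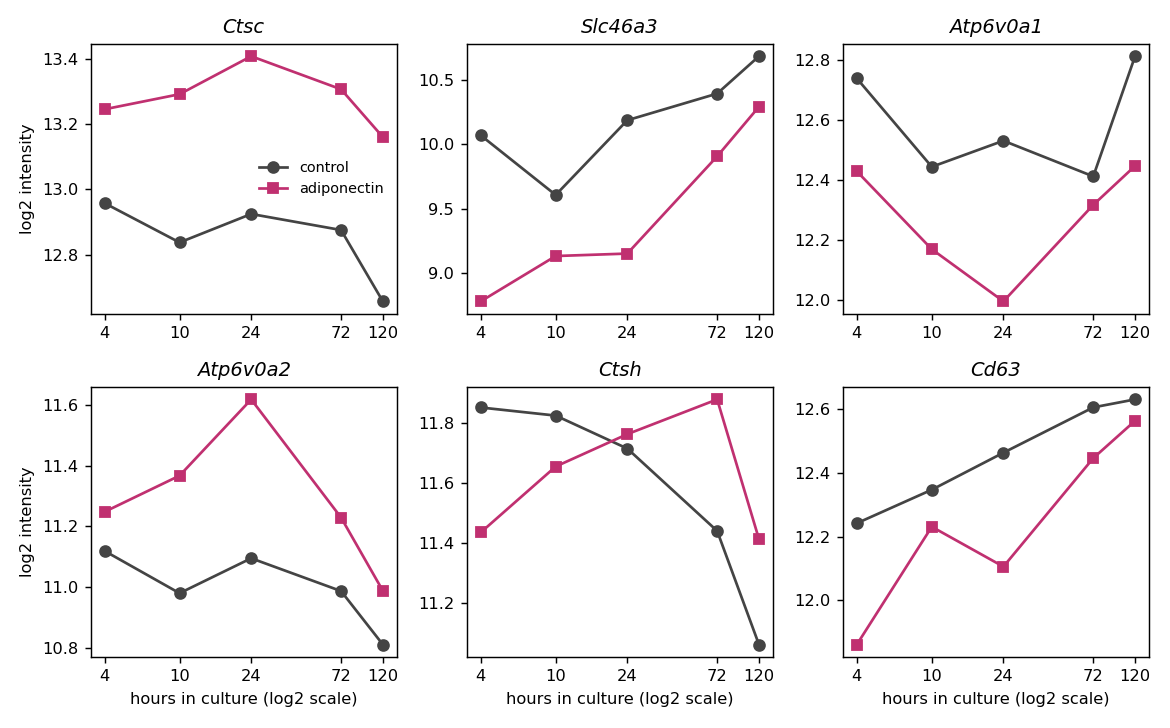
Log2 intensity of 6 genes on each of the 10 arrays against hours in culture on a log2 scale, control arm in grey circles and adiponectin arm in red squares, 1 array per point with no replicate at a time; the vertical scales differ between panels. Ctsc lies higher and Slc46a3 lower with adiponectin in all 5 pairs, Atp6v0a1 and Atp6v0a2 are parted in opposite directions, and the Ctsh lines cross.

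The pump genes were lower with adiponectin more often than not, by small amounts. Of the 15 pump genes, 0 passed the test in limma in either direction, 1 being higher and 6 lower at an unadjusted p under 0.05 (5.91% and 4.21% of all genes). Their median difference was -0.13, with 14 of 15 below 0, beside a median of 0.01 over all genes. The hydrolases had a median of -0.02, with 7 of 13 below 0, so that the pump median minus the hydrolase median was -0.10 (-0.13 without the 10 h pair). Over the whole group the median was -0.09, with 29 of 40 genes below 0. Of all 19938 genes 8746 were below 0, or 11001 after repeated quantile normalization. The lower sign was not particular to the pump. The 7 membrane proteins had a median of -0.09 (6 below 0), and 33 further lysosomal hydrolases, described below, had -0.07 (22 below 0). The sign of the pump median was the same, with 14 of 15 genes below 0, after quantile normalization was repeated or arrays were centred on their medians. With 1 pair left out the pump median lay between -0.18 (without 10 h) and -0.11 (without 72 h), and the hydrolase median turned to 0.02 without the 4 h pair.

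The V0 sector held the pump genes with the widest gaps. Atp6v0a1 encodes the a1 form of the large subunit that lines the proton path. It stood at 12.74, 12.45, 12.53, 12.41 and 12.81 in control cultures and at 12.43, 12.17, 12.00, 12.32 and 12.45 with adiponectin. It was lower in every pair, by 0.32 on average (mean difference -0.32 ± 0.16, SD, 5 pairs), with an adjusted p of 0.0812 in limma and of 0.015 when limma used an intensity trend and a robust prior. Atp6v0a2 encodes the a2 form of the same subunit and differed in the opposite direction. Its values were 11.12, 10.98, 11.10, 10.99 and 10.81 in control cultures and 11.25, 11.37, 11.62, 11.23 and 10.99 with adiponectin. It was higher in every pair, with a mean difference of 0.29 ± 0.16 (SD, 5 pairs) and an adjusted p of 0.117 in limma. Averaging its probe sets gave a difference of 0.21. Neither form passed the test, and the contrast between them was not tested.

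Atp6v0b, a proteolipid of the rotating ring, was lower in all 5 pairs as well. It stood at 12.16, 12.40, 12.56, 12.46 and 12.53 in control cultures and at 12.04, 12.20, 12.26, 12.21 and 12.46 with adiponectin, a mean difference of -0.19 ± 0.09 (SD) that did not pass the test (adjusted p = 0.346, limma). Atp6v0d1, the ubiquitous d subunit, differed by -0.11 ± 0.05 and was lower in 5 of 5 pairs, and Atp6v0e, the e subunit, by -0.09 ± 0.13 and was lower in 4 of 5.

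The V1 genes were lower together late in culture. All 8 V1 genes had a mean difference below 0, with a median of -0.18 and a range from -0.24 to 0.00. In limma 0 passed the test, and 4 were lower at an unadjusted p under 0.05, as were 4.21% of all genes. Without the 72 h pair 6 of the 8 were below 0, with a median of -0.11. At 72 h all 8 were lower with adiponectin, by 0.25 to 0.53, with a median difference of -0.40. At 120 h all 8 were lower again, with a median of -0.15. At 4, 10 and 24 h the medians were -0.11, 0.01 and -0.11, and the value at 10 h was -0.06 after repeated quantile normalization and -0.13 after centring. Of all genes, 53% were lower with adiponectin at 72 h and 56.5% at 120 h. Each time has 1 array per arm, so no single time has a test.

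Atp6v1c1, a subunit of the stalk that holds the sector still, had the largest V1 difference. It stood at 11.39, 11.01, 11.16, 11.29 and 11.40 in control cultures and at 10.92, 10.93, 10.89, 11.00 and 11.29 with adiponectin, lower in 5 of 5 pairs (mean difference -0.24 ± 0.16, SD; adjusted p = 0.231, limma). Atp6v1f, the small F subunit of the rotor, stood at 11.17, 11.57, 11.93, 11.59 and 11.63 in control cultures and at 11.23, 11.23, 11.53, 11.34 and 11.52 with adiponectin. It was lower from 10 h on and higher at 4 h. Atp6v1e1, part of the same stalk, was lower in 4 of 5 pairs, by most at 72 h (-0.50), and higher at 10 h (0.45): it stood at 11.49, 11.13, 11.46, 11.97 and 12.05 in control cultures and at 11.33, 11.59, 11.34, 11.47 and 11.90 with adiponectin.

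The catalytic A subunit Atp6v1a differed by -0.20 ± 0.13 and was lower in 5 of 5 pairs. The B2 subunit Atp6v1b2, with which it forms the ATP-splitting head, differed by -0.09 ± 0.21. Atp6v1d, the central shaft, differed by -0.21 ± 0.21, Atp6v1g1, of the stalk, by -0.15 ± 0.17, and the H subunit Atp6v1h by 0.00 ± 0.32 (all SD, 5 pairs). Atp6v1h was apart in both directions, from 0.22 and 0.39 above its control at 4 and 10 h (the latter against the 10 h control array) to a difference of -0.42 at 72 h. Of the accessory subunits, Atp6ap1 stood at 12.90, 13.01, 13.01, 13.06 and 13.09 in control cultures and at 12.84, 12.80, 12.86, 12.90 and 13.04 with adiponectin, lower in every pair by 0.05 to 0.21. Atp6ap2 was apart mainly at 4 h, at 11.76 against 11.23, and its later controls of 11.44, 11.61, 11.85 and 11.94 lay within 0.14 of treated values of 11.58, 11.53, 11.79 and 11.96.

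Genes of the wider pump were read from lists of related genes. Of 9 pump subunits with tissue-restricted forms, 1 fell and 0 rose at an adjusted p under 0.05 in limma, beside 0.371% and 2.05% of all genes. The one that fell was Atp6v0d2, the d form of osteoclasts and macrophages, which stood at 12.25, 12.22, 12.34, 13.37 and 13.43 in control cultures and at 11.56, 11.52, 10.79, 12.24 and 12.95 with adiponectin (mean difference -0.91 ± 0.43, SD; adjusted p = 0.00346), and the call held with any 1 pair left out. Its ubiquitous counterpart Atp6v0d1 had a difference of -0.11. Tcirg1, the a3 form that osteoclasts need, differed by -0.06 ± 0.17 (adjusted p = 0.893, limma). That mean covered differences of both signs, from 0.19 at 4 h to -0.22 at 72 h and -0.21 at 120 h. Late values below control were not limited to V1 genes. Of the 9 tissue-restricted subunits, 7 were lower with adiponectin at 72 h (median -0.13) and 8 at 120 h (median -0.22). Of all genes, 53% and 56.5% were lower at these times. Atp6v0a4, Atp6v1b1, Atp6v1c2, Atp6v1e2 and Atp6v1g3 were dim, with every value below the mean of the median gene (8.43), so their part in these counts is weak. Of 10 genes for pump assembly and regulation, 0 passed (1 was lower at an unadjusted p under 0.05, beside 4.21% of all genes).

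Osteoclast and dendritic cell markers were mostly lower at the same late times as the V1 genes. All 10 osteoclast markers were lower with adiponectin at 72 h, with a median difference of -1.12, and all 10 at 120 h, with a median of -0.39; at 4, 10 and 24 h their medians were 0.07, 0.05 and -0.31. The mean of the 10 markers, each centred on its own mean, ran from -0.72 to 1.27 over control cultures and from -0.66 to 0.90 over treated cultures. The 10 h median of the osteoclast markers was -0.02 after repeated quantile normalization and -0.09 after centring. Of the osteoclast markers only Atp6v0d2 passed the test of the adiponectin effect. Among 10 dendritic cell markers 1 passed as lower (adjusted p = 1.36e-05, limma), and among 10 macrophage markers 1 passed as higher (adjusted p = 0.00363). Over all genes 0.371% were lower and 2.05% higher. No marker of the other cell types passed. Of 10 dendritic cell markers 9 were lower at 72 h, with a median of -0.27, and 9 at 120 h, with a median of -0.56. Neutrophil markers had medians of -0.36 at 72 h (7 of 10 lower) and 0.08 at 120 h. Macrophage markers had 0.22 and 0.09, with 7 of 10 higher each time, and T and NK markers 0.34 and 0.32. B cell markers had -0.06 and 0.12 and erythroid markers -0.01 and -0.27. Stromal markers had 0.13 and 0.06 and megakaryocyte markers 0.14 and 0.02. In bulk RNA, fewer cells of a type and less RNA per cell cannot be told apart. The part of any of these cell types in the V1 difference was not tested.

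**Figure D3:**
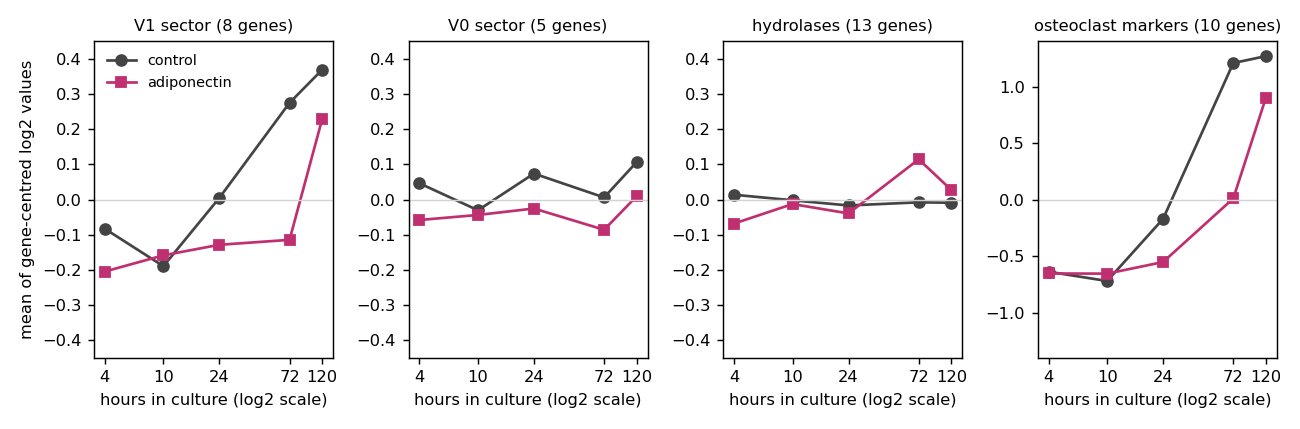
Mean of gene-centred log2 values per array against hours in culture on a log2 scale, for the V1 sector, the V0 sector, the hydrolases and 10 osteoclast markers, control arm in grey circles and adiponectin arm in red squares, 1 array per point; the marker panel has a wider vertical scale. At 72 h the V1 mean is 0.28 in the control arm and -0.11 in the adiponectin arm, and the marker mean is 1.21 and 0.01.

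The hydrolases did not share a direction. Ctsc rose, as given above, and the other 12 did not pass the test of the adiponectin effect. Ctsz, a carboxypeptidase, was higher in all 5 pairs, by 0.19 ± 0.13 on average. Gusb, the β-glucuronidase, was lower in all 5: it stood at 11.41, 11.53, 11.64, 11.81 and 11.86 in control cultures and at 11.29, 11.37, 11.32, 11.60 and 11.71 with adiponectin (mean difference -0.19 ± 0.08, SD; adjusted p = 0.324, limma). Hexa, the α chain of β-hexosaminidase, was lower in all 5 as well: it stood at 13.18, 13.10, 13.15, 13.37 and 13.52 in control cultures and at 12.89, 13.02, 12.95, 13.26 and 13.36 with adiponectin. The peptidase Tpp1 (-0.16 ± 0.12) was the other hydrolase lower in every pair.

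Ctsh, an aminopeptidase, crossed over. In control cultures it went from 11.85 and 11.82 through 11.71 and 11.44 to 11.06, and with adiponectin it stood at 11.43, 11.65, 11.76, 11.88 and 11.41. The difference was -0.42 at 4 h, 0.05 at 24 h, 0.44 at 72 h and 0.35 at 120 h, so that the mean (0.05 ± 0.36) hid differences of both signs. Its slopes differed between the arms by 0.17 per doubling of hours, the largest slope difference of the group, which did not pass the test (adjusted p = 0.436, limma; unadjusted p = 0.00126).

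Of the remaining cathepsins, Ctsa differed by -0.08 ± 0.09, Ctsb by -0.02 ± 0.13, Ctsd by -0.07 ± 0.12, Ctsl by 0.09 ± 0.14 and Ctss, which trims invariant chain in antigen presentation, by 0.16 ± 0.15. Ctss was higher by 0.36 at 72 h and 0.23 at 120 h. The sialidase Neu1 differed by 0.01 ± 0.10 and the acid lipase Lipa by -0.13 ± 0.19. At 72 h, when the median of the pump genes was -0.25, the hydrolase median was 0.12 and 9 of 13 hydrolases were higher with adiponectin.

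With adiponectin 2.05% of all genes rose and 0.371% fell in limma. Among 33 further lysosomal hydrolases, 1 rose and 0 fell. It was Acp2, an acid phosphatase of the lysosomal membrane (0.37 ± 0.17, higher in 5 of 5 pairs, adjusted p = 0.0386), and the call was lost without the 4, 10, 24 or 72 h pair (adjusted p = 0.0899, 0.143, 0.173 and 0.0678). Ctsk, the collagen-cutting cathepsin of osteoclasts, differed by -0.45 ± 0.64 (adjusted p = 0.412), and Acp5, the tartrate-resistant phosphatase, by -0.01 ± 0.46 (adjusted p = 0.995). At 4 h 30 of these 33 hydrolases were lower with adiponectin, as were 33 of the 40 genes of the group, while 43.1% of all genes were.

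Of the membrane and lipid-handling proteins, Slc46a3 alone passed the test. Cd63, a tetraspanin of late endosomes, was lower in all 5 pairs: it stood at 12.24, 12.35, 12.46, 12.61 and 12.63 in control cultures and at 11.86, 12.23, 12.11, 12.45 and 12.56 with adiponectin (mean difference -0.22 ± 0.14, SD; adjusted p = 0.299, limma). Rab38, a small GTPase of lysosome-related organelles, varied widely between cultures (a range of 1.42, against 1.90 for Slc46a3). It was lower in 4 of 5 pairs, by most at 72 h (-0.96), and higher at 10 h (0.68). It stood at 8.11, 7.42, 7.75, 8.84 and 8.77 in control cultures and at 8.00, 8.10, 7.70, 7.88 and 8.70 with adiponectin, a mean difference of -0.10 ± 0.58 that became 0.11 without the 72 h pair. The glycoproteins Lamp1 and Lamp2, which line the lysosomal membrane, differed by -0.01 ± 0.08 and 0.07 ± 0.14, Mcoln1 by -0.09 ± 0.08 and the macrophage glycoprotein Cd68 by -0.06 ± 0.08. Lamp1 and Neu1 spanned 0.18 over all 10 arrays and Psap 0.19, the smallest ranges of the group, whose median range was 0.53 against 0.50 for all genes.

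Npc1 and Npc2 hand cholesterol out of the lysosome. Npc2 stood at 12.37, 12.15, 12.51, 12.62 and 12.73 in control cultures and at 12.27, 12.52, 12.67, 12.79 and 12.81 with adiponectin (0.14 ± 0.17). Npc1 stood at 12.40, 12.21, 12.20, 12.31 and 12.39 in control cultures and at 12.16, 12.26, 12.25, 12.33 and 12.28 with adiponectin (-0.05 ± 0.13). The saposin precursor Psap, whose products assist lipid breakdown, differed by 0.00 ± 0.11. Of 19 further lysosomal membrane proteins, 1 fell and 0 rose, beside 0.371% and 2.05% of all genes. The one that fell was Ctns, the cystine exporter, lower in 5 of 5 pairs (mean difference -0.35 ± 0.07, adjusted p = 0.0233, limma). This call was lost without the 10, 24, 72 or 120 h pair (adjusted p = 0.0865, 0.098, 0.0827 and 0.0689).

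The transcription factors differed in opposite directions and neither passed the test. Tfeb stood at 10.58, 10.44, 10.74, 10.20 and 10.33 in control cultures and at 10.44, 10.40, 10.32, 9.95 and 10.12 with adiponectin. It was lower in 5 of 5 pairs (mean difference -0.21 ± 0.14, SD; adjusted p = 0.32, limma). Tfe3 stood at 11.43, 11.44, 11.58, 11.48 and 11.63 in control cultures and at 11.81, 11.49, 11.60, 11.58 and 11.73 with adiponectin. It was higher in 5 of 5 pairs (mean difference 0.13 ± 0.14; adjusted p = 0.677), of which the 4 h pair gave 0.38 and the others at most 0.11. Mitf, of the same family, differed by 0.24 ± 0.22 (adjusted p = 0.349) and Tfec by -0.12 ± 0.35 (adjusted p = 0.85). A list of 18 genes held Mitf, Tfec and genes that act on TFEB or on its kinase complex mTORC1, and 0 passed in limma. At an unadjusted p under 0.05, 1 was higher (Mitf) and 1 lower (Flcn), beside 5.91% and 4.21% of all genes. Among 16 genes that sort proteins to the lysosome, 0 passed (2 lower at an unadjusted p under 0.05, beside 4.21% of all genes). The 9 genes with the E-box core had a median adiponectin difference of -0.09, and the 22 whose windows lack it had -0.12.

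Over the whole group, 12 of 40 genes were lower with adiponectin in all 5 pairs, as were 4.4% of all genes, and 4 of 40 were higher in all pairs, as were 6.32% of all genes. The 10 h control array that stood apart bears on these shares. At 10 h 35.4% of all genes and 21 of the 40 were lower as deposited, against 12412 of 19938 and 31 of 40 with centred arrays. The counts over all pairs were not repeated with centred arrays or without the 10 h pair. The 12 were Atp6v1a, Atp6v1c1, Atp6v0a1, Atp6v0b, Atp6v0d1, Atp6ap1, Hexa, Gusb, Tpp1, Slc46a3, Cd63 and Tfeb, and the 4 were Atp6v0a2, Ctsc, Ctsz and Tfe3. Pump genes supplied 6 of the 12 and 1 of the 4. Agreement in sign over the pairs is a looser rule than the test, which 1 of the 12 and 1 of the 4 passed.

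**Figure D4:**
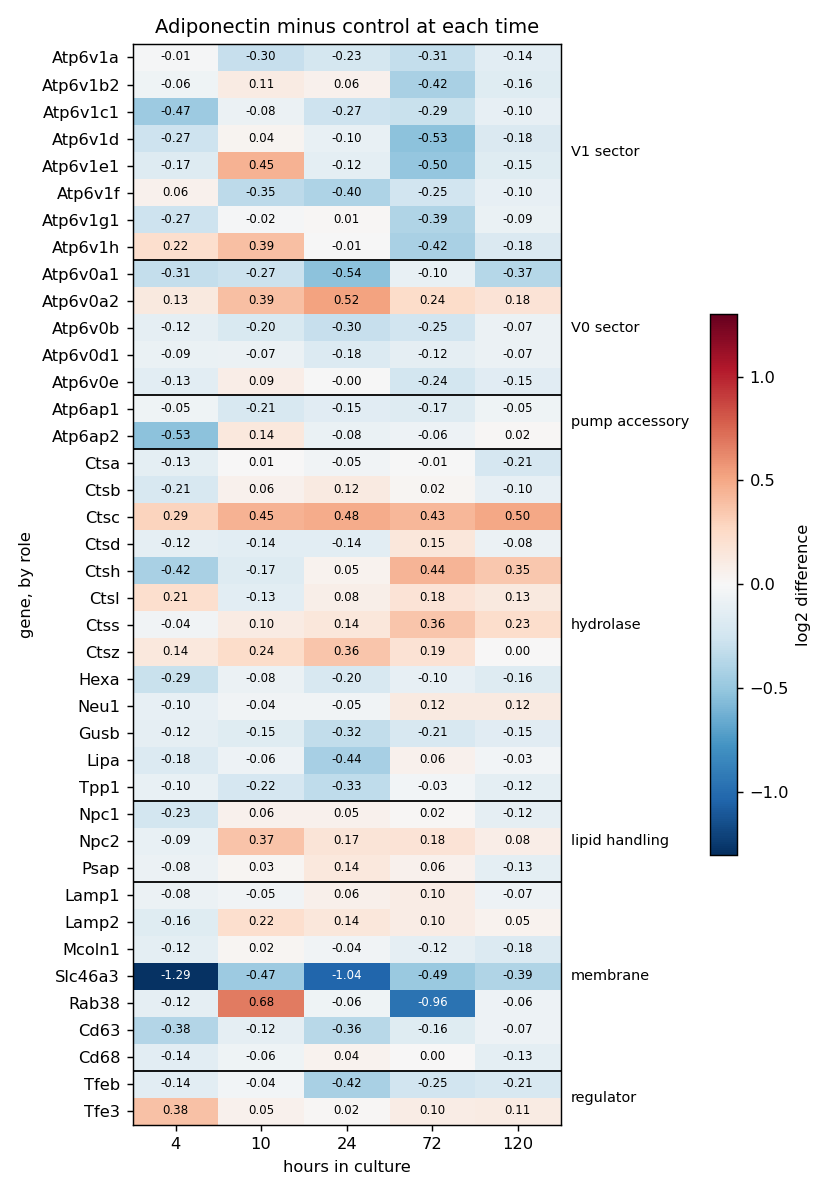
Adiponectin minus control on the log2 scale for each of the 40 genes (lines, grouped by role) at each time (columns), 1 pair of arrays per cell, with red for higher and blue for lower with adiponectin. Slc46a3 is blue and Ctsc red at all 5 times, and the 8 V1 genes are all blue at 72 h, between -0.25 and -0.53.

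Culture time was read as a slope per doubling of hours, fitted in limma for both arms together with a shared spread. In the control arm 1 of the 40 genes rose and 0 fell, while 4.64% of all genes rose and 4.45% fell. With arrays centred on their medians the 925 risers and 888 fallers among all genes became 738 and 1559. At an unadjusted p under 0.05, 14 of the 40 were rising and 1 falling, beside 16.3% and 10.1% of all genes. The gene that rose was Gusb, at 0.09 ± 0.02 (SE) per doubling with an adjusted p of 0.0413. This call was lost without the 4, 10, 72 or 120 h pair (adjusted p = 0.133, 0.0804, 0.219 and 0.377), with centred arrays (0.138) and with each arm fitted alone (0.132).

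V1 genes had the steeper control slopes. All 8 were positive, or 7 of 8 without the 4, 10 or 120 h pair, with a median of 0.11 per doubling (0.17 without the 4 h pair), against 0.06 for all 15 pump genes, -0.01 for the hydrolases and 0.02 for all genes. The V0 genes had a median of 0.00, or -0.02 with centred arrays. Atp6v1e1 had the steepest control slope of the pump, at 0.15 ± 0.05 (SE; adjusted p = 0.082), and Atp6v1h and Atp6v1d followed at 0.15 ± 0.04 (adjusted p = 0.0576) and 0.14 ± 0.04 (0.0569). None of the 3 passed the test as fitted. Atp6v1d and Atp6v1h did when limma tested only genes above the median level (3 of the 40 genes rising) and after repeated quantile normalization (7 of 40), and Atp6v1d also with the intensity trend and robust prior. Without the 4 h pair all 3 passed, among 7 of the 40, and without the 10, 72 or 120 h pair 0 were. From 4 to 120 h the control arm changed by 0.56 at Atp6v1a and Atp6v1e1, by 0.57 at Atp6v1d and by 0.58 at Atp6v1h.

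In the adiponectin arm 2 of the 40 genes rose and 0 fell, while 4.15% of all genes rose and 3.46% fell. Slc46a3 rose by 0.30 ± 0.05 (SE) per doubling (adjusted p = 0.00999, limma), from 8.78 at 4 h to 10.29 at 120 h, and Cd63 by 0.13 ± 0.03 (adjusted p = 0.0196). Slc46a3 lost the call without the 72 h pair (adjusted p = 0.0755) or the 120 h pair (0.163), and Cd63 without the 4, 72 or 120 h pair (0.203, 0.133 and 0.282). Without the 4 h pair 1 of the 40 rose, without the 10 h pair 4 did, and without the 72 or 120 h pair 0 did. At an unadjusted p under 0.05, 9 of the 40 were rising and 1 falling, beside 11% and 9.52% of all genes. Pump genes had a median slope of 0.05 with adiponectin (0.02 without the 120 h pair) and hydrolases 0.02, beside -0.01 for all genes. Among the pump genes Atp6ap2 had the steepest slope there, at 0.13 ± 0.04 (adjusted p = 0.0515), followed by Atp6v1g1 at 0.10 ± 0.03, which stood at 10.69, 10.94, 11.22, 11.02 and 11.31 with adiponectin and at 10.96, 10.96, 11.21, 11.41 and 11.40 without. Npc2 and Hexa had slopes of 0.11 ± 0.03 and 0.09 ± 0.03, and Tfeb had the lowest slope of the group, -0.09 ± 0.04 (adjusted p = 0.198).

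**Figure D5:**
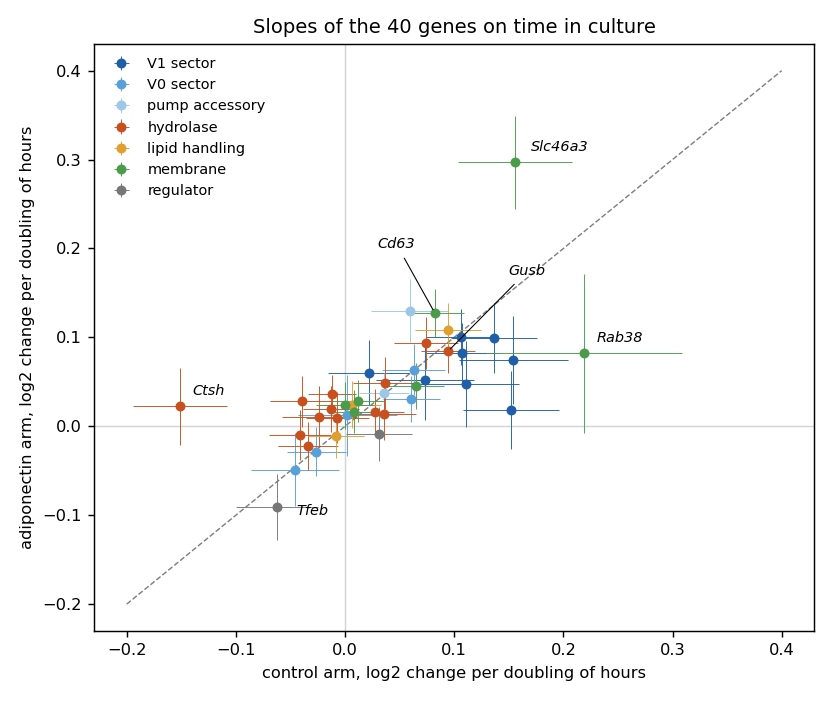
Slope on time in culture, in log2 units per doubling of hours, for the control arm (horizontal) and the adiponectin arm (vertical), 1 point per gene coloured by role, with standard errors from limma as bars and the line of equal slopes dashed. Slc46a3 lies above that line (0.16 and 0.30), as does Ctsh (-0.15 and 0.02), and 7 of the 8 V1 genes lie below it.

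Pump and hydrolase genes were set against each other at each time. In the control arm the mean of the 15 pump genes, each centred on its own mean, minus that of the 13 hydrolases was -0.04, -0.12, 0.04, 0.18 and 0.27 from 4 to 120 h. With adiponectin it was -0.10, -0.10, -0.05, -0.20 and 0.12. The pump genes thus stood above the hydrolases at 72 and 120 h in the control arm, by 0.04 at 24 h (0.00 after repeated quantile normalization), and at 120 h alone in the treated arm, and the hydrolase mean in control cultures stayed between -0.02 and 0.01 (between -0.08 and 0.15 with centred arrays). The median pump slope exceeded the median hydrolase slope by 0.08 per doubling in the control arm and by 0.03 in the adiponectin arm. Without the 120 h pair the second of these was -0.01, and without the 72 h pair it was 0.07. The 33 further hydrolases had median slopes of 0.05 in the control arm and 0.11 with adiponectin, against 0.06 and 0.05 for the pump genes.

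Whether slopes differed between the arms was tested gene by gene. Of the 40 genes 0 passed in limma, as did 0% of all genes, with 2 of the 40 steeper and 1 shallower with adiponectin at an unadjusted p under 0.05 (3.11% steeper and 6.72% shallower over all genes). The lowest adjusted p of the group was 0.436, at Ctsh. Slc46a3, with a slope difference of 0.14, and Atp6v1h, with -0.13, were the others with an unadjusted p under 0.05. Of the 8 V1 genes 7 had a shallower slope with adiponectin, with a median difference of -0.03 (-0.08 without the 4 h pair, -0.02 without the 72 h pair). A slope past the threshold in 1 arm alone, as for Gusb, Cd63 and Slc46a3, is therefore not shown to differ between the arms.

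The same slopes were read for other lysosomal genes and for lineage markers. Of the 33 further hydrolases, 4 rose and 1 fell in the control arm, beside 4.64% and 4.45% of all genes. In the adiponectin arm 9 rose and 0 fell, beside 4.15% and 3.46% of all genes. With 1 pair left out these risers numbered 0 (without 72 or 120 h) to 10 (without 4 h) in the control arm and 1 (without 120 h) to 10 (without 4 h) in the adiponectin arm. Ctsk went from 10.01 at 4 h to 13.51 at 120 h in control cultures (slope 0.86, adjusted p = 0.0047) and from 9.77 to 13.07 with adiponectin (0.67, adjusted p = 0.00755). Acp5, the phosphatase named above, went from 12.42 to 13.92 in control cultures (0.37, adjusted p = 0.00716). Tcirg1, with 0.08 in control cultures (adjusted p = 0.0689) and 0.00 with adiponectin, did not pass in either arm. Of the osteoclast markers 8 of 10 rose in the control arm (median slope 0.43) and 3 of 10 in the adiponectin arm (0.28). Ctsk and Acp5 belong to both lists and are counted among the 33 hydrolases and among the 10 markers. Itgb3, the integrin β3 chain and one of the 10, fell in the adiponectin arm (-0.36, adjusted p = 0.0249, limma), a call lost without the 10, 72 or 120 h pair, and had a slope of -0.27 in the control arm (adjusted p = 0.0641). The neutrophil markers had median slopes of -0.64 and -0.59 and stromal markers of 0.18 and 0.23. Without the 72 or 120 h pair 0 osteoclast markers, Ctsk and Acp5 included, passed in either arm. Their part in the slopes of the lysosomal genes was not tested.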

How the data were processed

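RNA from 10 cultures was hybridised to Affymetrix arrays, 1 for each arm and time. The deposited values are log2 intensities that the authors made with RMA, and Affymetrix Expression Console and Partek are named per the submitters' processing notes; versions and build stand as not given in the sources used here. Of 35556 probe sets, 21789 had 1 gene symbol, 1621 several and 12146 none. Probe sets with 1 symbol were reduced to 19938 genes by highest mean (999 genes had more than 1). The number of arrays limits the precision.

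The tests used limma (version 3.58.1, R 4.3.3; lmFit, eBayes, two-sided, Benjamini-Hochberg over all genes, threshold 0.05): treatment with time as a block, slopes on log2 hours in each arm, and their difference. The scripts were checked on simulated data. The genes, lists and promoters were chosen with earlier results of these data known. Every measured member was named; values on all arrays were given for those past the threshold, the 2 largest differences and steepest slopes of each role, Tfeb and Tfe3. Promoters without the core were added because they belong to the genes past the threshold. Alternatives changed normalization, probe set choice, level filter, prior, time scale, block, arms fitted together and the pairs included. Atp6v0c was not analysed here.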

Additional observations from a re-analysis of the deposited data

Results flagged for a closer look

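In 2 of the 40 genes, 1 pair stood far from the other 4 in its adiponectin-minus-control difference, with a gap to the nearest pair that exceeded 0.71 of the whole range (Dixon's critical value for 5 values). The pairs are different times and not replicates, and chance alone marks about 1 in 20 such groups. Ctsd, the aspartic cathepsin, differed by 0.15 at 72 h and by -0.08 to -0.14 at the other times, and its gap was 0.795 of the range. Tfe3 differed by 0.38 at 4 h and by 0.02 to 0.11 at the other times, with a gap of 0.752 of the range.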

How the results depend on the processing

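None of the values for single genes changed sign where they were called: of these values under the alternatives, 1291 kept their direction and side of the threshold, 35 passed it only under the alternative, 13 no longer passed it and 18, none of them past it, changed sign by more than a standard error. The 1 gene higher with adiponectin remained 1 under each alternative. The count of genes lower with adiponectin (1) was 2 with the intensity trend and robust prior, 0 without the time block, and 0 to 1 with 1 pair left out. The count rising in the control arm (1) was 7 with repeated quantile normalization, 0 with centred arrays, 3 among genes above the median level, 2 with the trend and robust prior, 10 with linear hours, 0 with arms fitted alone, and 0 to 7 with 1 pair left out. The count falling in the control arm (0) was 1 with centred arrays, above the median level, with the trend and robust prior and with linear hours. The count rising with adiponectin (2) was 5, 4, 4, 5, 7 and 4 under those settings in the order given for the control arm, and 0 to 4 with 1 pair left out. The pump slope minus the hydrolase slope ranged, with 1 pair left out, from 0.0752 to 0.1146 in the control arm and from -0.0149 to 0.0658 in the adiponectin arm. The causes were not tested. Over all genes, the 74 lower with adiponectin were 21 without the 24 h pair and 4 without the time block, and risers in the control arm (925) were 6 and 5 when the 72 h or 120 h arrays were left out, as risers with adiponectin (827) were 63 and 23. With 1 array per arm and time, no single time has a test, and depth does not apply to arrays.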

Other observations

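The 9 further hydrolases that rose over time in the adiponectin arm, named here after their values were seen, included 3 enzymes of heparan sulfate breakdown, Sgsh, Naglu and Idua. Their slopes were 0.29, 0.17 and 0.15 per doubling of hours (adjusted p = 0.00318, 0.00755 and 0.0204, limma). In the control arm the slopes were 0.15, 0.10 and 0.07, of which Sgsh alone passed the test (adjusted p = 0.0252). The phospholipase Pla2g15 (0.19, adjusted p = 0.00323), the β-mannosidase Manba (0.14, adjusted p = 0.00962), the α-glucosidase Gaa (0.13, adjusted p = 0.0425), Aga (0.18, adjusted p = 0.0486), Scpep1 (0.12, adjusted p = 0.0419) and Ctsk were the others. None of the 33 differed in slope between the arms by the limma test. At an unadjusted p under 0.05, 2 were steeper and 1 shallower with adiponectin, beside 3.11% and 6.72% of all genes. With the 4, 10, 24, 72 or 120 h pair left out, 5, 6, 7, 2 and 1 of the 9 calls were kept. Sgsh kept its call in the adiponectin arm with any 1 pair left out and lost that in the control arm without the 10, 72 or 120 h pair. Idua lost its call without the 4, 72 or 120 h pair, and Aga kept its call only without the 24 h pair. Gaa and Scpep1 lost theirs with any 1 pair left out. Hgsnat, Ids and Gusb, which also act in heparan sulfate breakdown, did not pass in the adiponectin arm. Their slopes there were 0.17, 0.05 and 0.08 (adjusted p = 0.0971, 0.363 and 0.0675, limma).

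In both arms 2 genes of vesicle sorting fell, and 1 rose in the adiponectin arm. Sort1, which carries hydrolases from the Golgi to endosomes, had slopes of -0.27 in each arm (adjusted p = 0.00396 in controls and 0.00323 with adiponectin), and Rab27a, a GTPase of secretory lysosomes and granules, had -0.60 and -0.49 (adjusted p = 0.0157 and 0.0312). Of the 16 sorting genes these were the 2 that fell in the control arm and the 2 that fell with adiponectin. Over all genes 4.45% fell in the control arm, and 4.15% rose and 3.46% fell with adiponectin. Sort1 lost the call in controls without the 72 or 120 h pair and with adiponectin without the 120 h pair, and Rab27a lost both without the 10, 72 or 120 h pair. Ap1b1, a subunit of the AP-1 adaptor of Golgi and endosomes, rose with time in the adiponectin arm (0.19, adjusted p = 0.0319, limma), a call lost without the 4, 10, 72 or 120 h pair, and had a slope of 0.08 in controls (adjusted p = 0.285).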
